A study of Mus musculus with 2 samples.

Results

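The ligands and receptors of the fibroblast growth factor (FGF) and epidermal growth factor (EGF) families, together with the feedback inhibitors that they induce, were examined in epithelial cells of the mouse submandibular gland. Members were taken by gene name from the array annotation. The name rule covered the FGFs and their receptors, EGF, the other EGF receptor ligands, the neuregulins, the 4 receptors of the EGF receptor family, the Sprouty genes and Dusp6, and it matched 104 of the 56605 probes, for 49 of 37006 gene names. Of these names, 3 belong to other kinds of genes and were matched only because their names begin alike, namely Fgf2os, an RNA from the strand opposite Fgf2, and Fgfr1op and Fgfr1op2, named after fusion partners of FGFR1.

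The study compared gland epithelial cells of young and aged mice. The young sample came from female C57BL/6 mice aged 9 weeks and the aged sample from female C57BL/6 mice aged 24 months (C57BL/6N in the methods of the study), both without treatment, and in each the cells were bound to magnetic beads that carry an antibody against EpCAM, an epithelial surface protein. Each age had 1 Agilent array of 62976 spots, both on the same slide, so differences between the ages have no replicate check and were not tested. The methods of the study give different sources for its young and aged mice, so source and age cannot be told apart. Levels are log2 signals relative to the 75th percentile of the array, which was 256 in intensity in the young and 198 in the aged sample, and differences are aged minus young. The scanner software marked 55.4% of the young and 50.8% of the aged non-control spots as well above background. A gene is given by its brightest probe, and errors are those of the software's error model, which do not cover the spread between mice. Of the 7 epithelial markers, Epcam, Cdh1, Cldn7, Krt7, Krt8 and Krt18 were measured well above background by both arrays, and Krt19 by the young array only. Krt18, the brightest of them, had levels of 8.37 in the young and 8.58 in the aged sample, and the summed level of the list relative to the 75th percentile was 505 and 564.

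FGFs and EGF-like ligands bind receptor tyrosine kinases at the cell surface and activate the RAS-ERK pathway inside the cell. FGF signals from the mesenchyme, FGF10 through FGFR2 above all, are needed for the salivary glands to form and branch, and in mice the granular duct cells of the submandibular gland are a classic source of EGF. Sprouty proteins and the phosphatase DUSP6 are induced by ERK activity and dampen the same pathway.

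Probes of 4 genes that differed between the arrays or between their own probes are shown first, 5′ to 3′, with their position in the files' build (NCBI37, mm9). The probe that gave the Fgf14 result (A_52_P168549) matches transcript variant 2 and lies at chr14:125075791-125075850 on the reverse strand.

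Fgf14: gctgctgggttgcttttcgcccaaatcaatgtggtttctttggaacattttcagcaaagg

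The Nrg4 probe A_55_P2185905 crosses a splice junction within chr9:55075745-55084303 on the reverse strand, and the Fgfr1 probe A_65_P11598 lies at chr8:26682852-26682911 on the forward strand. Neither is the brightest probe of its gene, and both are shown as a further reading of it.

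Nrg4: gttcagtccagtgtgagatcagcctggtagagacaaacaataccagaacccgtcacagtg

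Fgfr1: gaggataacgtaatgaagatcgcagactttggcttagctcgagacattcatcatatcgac

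For Nrg1, the probe A_55_P1985433 at chr8:32928500-32928559 and the probe A_52_P369769 at chr8:32959791-32959850, both on the reverse strand, are shown because Nrg1 probes differed from each other. Capitals mark the codon TAA at the end of the first, which is the only stop codon in 1 of its reading frames.

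Nrg1, first probe: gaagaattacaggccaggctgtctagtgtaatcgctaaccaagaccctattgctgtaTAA

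Nrg1, second probe: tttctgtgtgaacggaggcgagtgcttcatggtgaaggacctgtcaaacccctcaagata

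Of the 49 genes, 34 were measured well above background by at least 1 array, 31 of them on both, 1 on the aged array only and 2 on the young array only. A difference was counted at 2-fold, the threshold of the study's methods, either as measured on both arrays or by a lower limit. The limit sets the array that measured the gene against the other array at its lowest signal well above background, or at the probe's own signal there where that was higher. By this count, 3 of the 34 genes were at least 2-fold higher in the aged sample, Fgf14, Nrg4 and Fgfr1op. Among all 21347 genes kept by the same filter, 2.52% were at least 2-fold higher. None of the 34 was at least 2-fold lower, against 5.14% of all kept genes. Among the genes measured on both arrays, 2 of 31 (Nrg4 and Fgfr1op) were at least 2-fold higher, where the share over all such genes was 1.52%, and 0 were at least 2-fold lower, where it was 3.05%. Of these 31 genes, 13 had positive and 18 negative differences, where 7519 of all 18745 genes so measured were negative. The median of the 31 was -0.08, beside 0.09 over all genes so measured. The median error of the 31 differences was 0.21. Higher genes made up 32.9% of all genes past 2-fold. Centring on the array median moved the median over all genes to 0.27 and that share to 48.1%, and setting the arrays level on spike-in controls moved them to -0.16 and 17.7%. The sign of the difference changed under at least 1 of 7 scalings for 15 of the 34 genes, while 7 were positive and 12 negative under all that gave them a value.

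**Figure D1:**
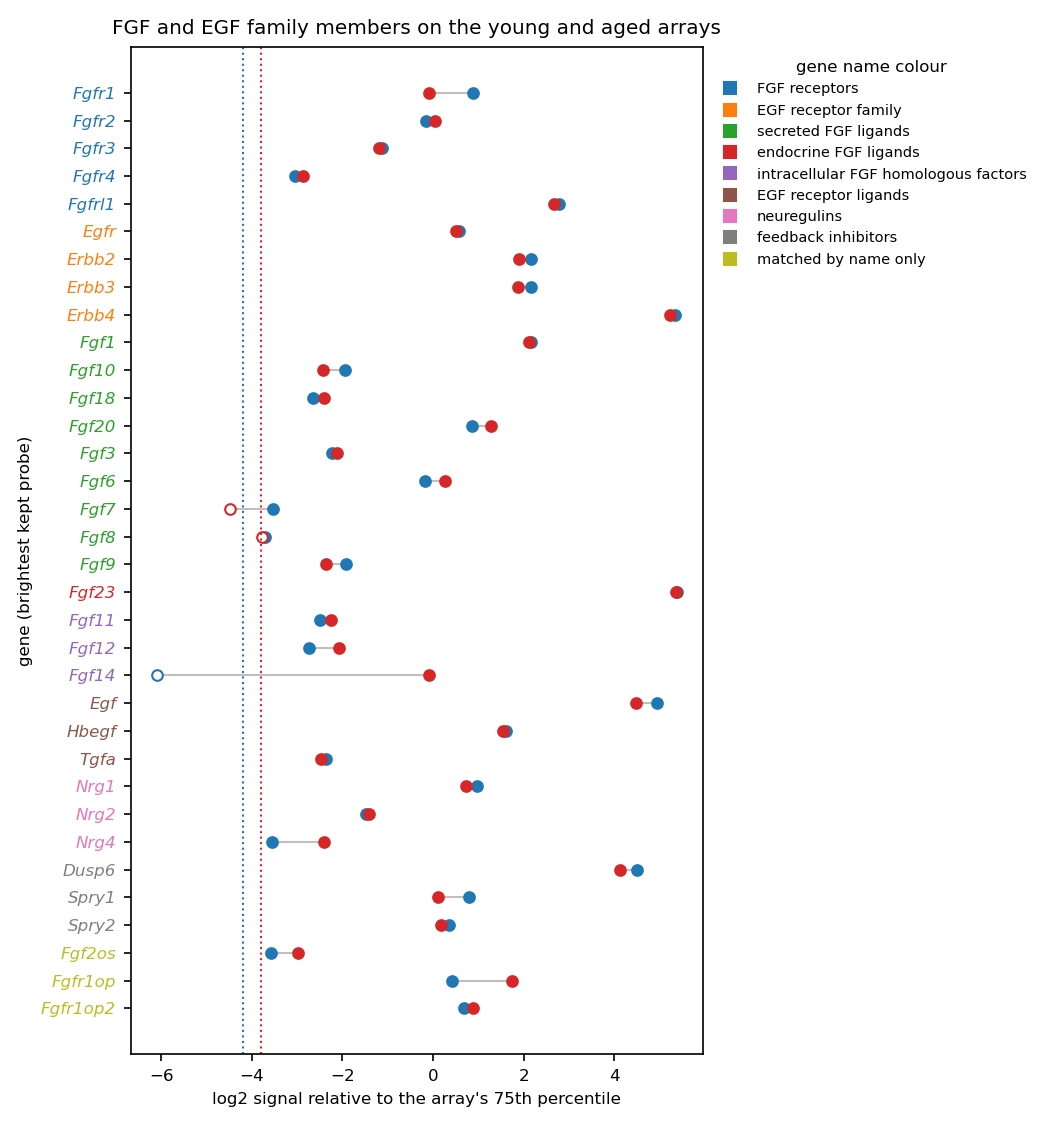
Levels of the 34 genes on both arrays, as log2 signal relative to the 75th percentile (horizontal axis), 1 point per array and gene. Filled points are well above background, open points are not, dotted lines mark the lowest signal well above background, and most pairs of points lie close together while those of Fgf14 lie apart.

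The FGF receptors, 5 genes, were all well above background on both arrays. Fgfr1 encodes a receptor found on mesenchymal and on some epithelial cells. Its brightest probe had a signal of 473 ± 47.5 in the young and 185 ± 18.8 in the aged sample, levels of 0.89 and -0.10. The difference of -0.98 ± 0.21 (1.97-fold lower) lay just short of 2-fold, and it ranged from -1.24 to -0.81 over the scalings, passing 2-fold under 4 of them. The second kept Fgfr1 probe, whose sequence is given above, was well above background on the young array only, with a signal of 24.2 there and 5.49 on the aged array, which puts the aged sample at least 1.31-fold lower. The other 2 Fgfr1 probes were on neither array well above background.

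The other FGF receptors differed by about their errors. Fgfr2, the receptor of FGF7 and FGF10 on epithelium, had levels of -0.15 in the young and 0.05 in the aged sample, a difference of 0.20 ± 0.21, and its second probe differed by 0.26 ± 0.32. Fgfr3 differed by -0.08 ± 0.21 and Fgfr4 by 0.17 ± 0.33. Fgfrl1, a receptor-like protein without a kinase domain, had levels of 2.78 and 2.68. Among these, Fgfr2, Fgfr3, Fgfr4 and Fgfrl1 each changed sign under 1 scaling.

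Markers of connective tissue and of macrophages moved with Fgfr1. Of 8 fibroblast markers, 7 were kept, 4 of these (Col1a1, Col1a2, Col3a1 and Pdgfra) were at least 2-fold lower in the aged sample, and Dpt was on neither array well above background. Their summed level relative to the 75th percentile was 18.7 in the young and 8.78 in the aged sample, a log2 difference of -1.09. Dcn, the brightest fibroblast marker, had levels of 3.76 and 2.78. All 8 markers of macrophages and dendritic cells were measured on both arrays, 5 of them at least 2-fold lower, with a summed level of 146 in the young and 56.8 in the aged sample. Lyz2, their brightest gene, had levels of 6.54 and 4.63. Of the 8 basal and myoepithelial markers, Cnn1 and Myh11 were at least 2-fold lower, with differences of -2.14 and -1.83, whereas the summed level was 72.5 in the young and 83.8 in the aged sample and Trp63, the brightest, had levels of 5.39 and 5.68. In a bulk sample, fewer cells of a type and less RNA per cell cannot be told apart. The part of these cell types in the Fgfr1 value was not tested.

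All 4 receptors of the EGF receptor family were measured on both arrays, and all 4 differences were negative and under 2-fold. Egfr, the receptor of EGF and TGF-alpha, had a signal of 382 ± 38.3 in the young and 280 ± 28.2 in the aged sample, levels of 0.58 and 0.50. Its other kept probes differed by 0.43 ± 0.22 and -0.06 ± 0.24. Erbb2, which has no ligand of its own and pairs with the other members, had levels of 2.16 and 1.90, a difference of -0.27 ± 0.20, and its second probe differed by 0.01 ± 0.21. Erbb3, a neuregulin receptor with little kinase activity, had levels of 2.16 and 1.87, a difference of -0.29 ± 0.20, and its second probe, measured in the young sample only, was at least 1.58-fold lower. By the brightest probe, the Erbb2 and Erbb3 differences remained negative under all 7 scalings, and those of Egfr and Erbb4 did not.

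Erbb4, the other neuregulin receptor, is made in splice forms that differ in a cytoplasmic segment, and its 2 probes cross different splice junctions. Capitals mark the 22 bases that both probes share. The first (A_51_P283698) spans chr1:68089291-68090519 and the second (A_52_P256090) spans chr1:68089289-68118127, both on the reverse strand.

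Erbb4, first probe: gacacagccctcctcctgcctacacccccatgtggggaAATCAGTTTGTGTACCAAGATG

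Erbb4, second probe: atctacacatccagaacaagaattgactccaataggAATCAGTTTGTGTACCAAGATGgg

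The first Erbb4 probe had levels of 5.34 in the young and 5.23 in the aged sample, a difference of -0.11 ± 0.20, with signals of 10409 and 7441. The second was on neither array well above background. The Erbb4 values rest on the first probe alone.

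Of the 15 secreted FGF ligands, 9 were measured well above background by at least 1 array and 0 differed by 2-fold. Fgf10 and Fgf7 encode ligands that connective tissue cells make for the epithelial FGFR2. Fgf10 had a signal of 66.8 ± 7.39 in the young and 37.0 ± 4.88 in the aged sample, levels of -1.94 and -2.42. Its difference of -0.48 ± 0.25 was negative under all scalings, from -0.74 to -0.15. Fgf7 was well above background on the young array only, with a signal of 22.0 there and 8.91 on the aged array, which puts the aged sample at least 1.19-fold lower. Both lay in the direction of the fibroblast markers given above, whose part in these values was not tested.

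Fgf9 and Fgf1 are secreted ligands made by epithelia among other tissues. Fgf9 had levels of -1.93 in the young and -2.37 in the aged sample, a difference of -0.44 ± 0.24. Fgf1 had signals of 1144 and 862, levels of 2.16 and 2.12, and its second kept probe differed by 0.29 ± 0.24. The Fgf9 difference kept its sign under all 7 scalings, and that of Fgf1 did not. Fgf18 differed by 0.23 ± 0.27, Fgf3 by 0.10 ± 0.24 and Fgf6 by 0.45 ± 0.21. Fgf8 was well above background on the young array only, with signals of 19.7 and 14.4 that lie near the detection limit.

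Some FGF probes call for care about what they measured. Fgf20 had levels of 0.87 and 1.27 by a probe of 80.0% GC bases, a content that 0.042% of all probes reach, while its other probe was on neither array well above background. The probe for Fgf23, a hormone known from bone, had signals of 10652 in the young and 8219 in the aged sample. The first 30 of its 60 bases are shown because of the run of 10 CA repeats in capitals. The probe (A_55_P2169514) lies at chr6:127030758-127030817 on the forward strand.

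Fgf23: cCACACACACACACACACACAtacatgtaa

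Of all probes on the array, 80 hold a CA or TG repeat at least this long, and all 80 were well above background on both arrays, with median signals of 10839 in the young and 9345 in the aged sample. The Fgf23 probe also shares at least 25 bases in a row with the probe of another gene, Mtfr2. Its difference was -0.00 ± 0.20, and no level of Fgf23 is drawn from it. Fgf15 and Fgf21, the other endocrine FGFs, were not well above background.

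The intracellular FGF homologous factors are FGF-like proteins that are not secreted and are known as partners of voltage-gated sodium channels in neurons. Fgf14 belongs to this group. The Fgf14 probe shown above had an aged signal of 187 ± 19.1 and a young value of 3.73, a substitute not well above background. The signal was at least 17.2-fold higher in the aged sample, or a log2 difference of at least 4.11. This limit was between 1.94 (normexp background correction) and 4.28 over the scalings, so the gene stayed past 2-fold. The other Fgf14 probe (A_52_P1011), which matches both transcript variants, was on neither array well above background, with signals of 3.68 and 3.67. The Fgf14 difference therefore rests on 1 probe for 1 of the annotated variants.

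The other kept factors of this group had positive differences, with Fgf11 at -0.00 under the spike-in scaling. Fgf12 had levels of -2.73 in the young and -2.08 in the aged sample, a difference of 0.65 ± 0.27 that stayed positive under all scalings. A second Fgf12 probe, measured on the aged array only, was at least 2.09-fold higher, and the 2 others were not well above background. Fgf11 differed by 0.26 ± 0.25 and, by its second kept probe, by 0.60 ± 0.29. Fgf13 was not well above background with any of its probes. Of 6 markers of nerve and Schwann cells, 5 were kept and 0 differed by 2-fold. Their summed level was 12.1 in the young and 12.2 in the aged sample, and Sox10, the brightest, which made up most of it, had levels of 3.48 and 3.45. Sox10 is also known from acinar and myoepithelial cells of salivary glands, so the sum is not a measure of nerve cells alone. Tubb3, a neuronal tubulin, differed by 0.98 ± 0.21, and S100b, a glial protein, was measured in the aged sample only, at least 1.89-fold higher. The part of nerve cells in the Fgf14 and Fgf12 values was not tested.

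**Figure D2:**
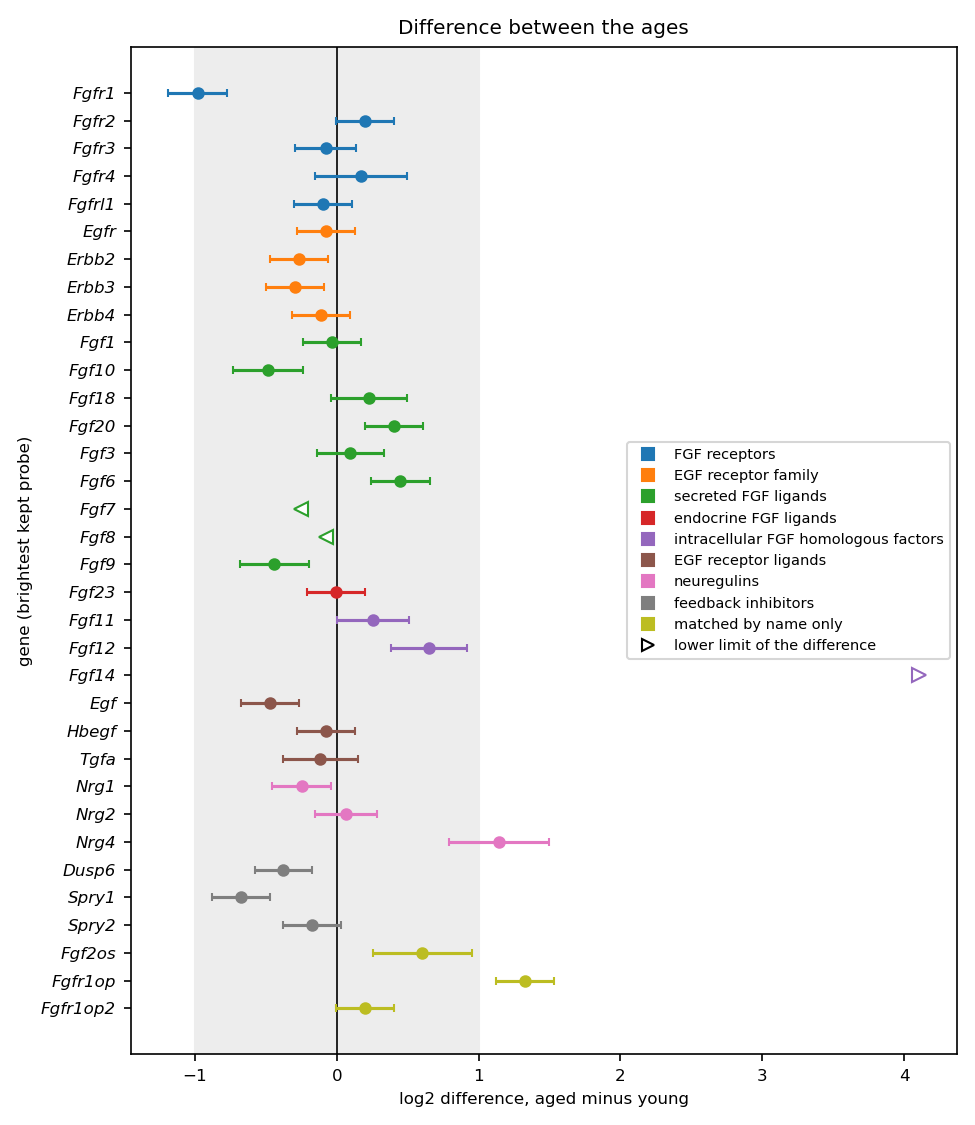
Log2 difference, aged minus young (horizontal axis), for the brightest probe of the 34 genes, coloured by role. Bars are the error of the scanner software, the grey band marks less than 2-fold, triangles are lower limits, and Fgf14, Nrg4 and Fgfr1op lie to the right of the band while Fgfr1 lies at its left edge with -0.98.

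Of the 6 ligands of the EGF receptor, 3 were measured on both arrays and Areg, Ereg and Btc were well above background on neither. Egf had a signal of 7872 ± 787 in the young and 4394 ± 439 in the aged sample, levels of 4.94 and 4.47. The difference of -0.47 ± 0.20 (1.38-fold lower) was negative under all scalings, from -0.87 to -0.29. The 2 other Egf probes, which match different transcripts, differed by -0.62 ± 0.24 and -0.37 ± 0.36, so the 3 probes lay on the same side. Granular duct cells also make kallikreins, and the renin gene Ren1 was listed as a further marker. Ren1 was dim here, with levels of -2.74 in the young and -2.63 in the aged sample. All 15 granular duct markers were measured on both arrays, 13 of them with negative differences and 0 past 2-fold. Among all genes so measured, 7519 of 18745 were negative. The summed level of the 15 markers was 5079 in the young and 5028 in the aged sample. Klk1b5, the brightest, had levels of 9.93 and 10.17, although the Klk1b genes are near-identical copies that probes may not tell apart. Among the 11 acinar markers, Smgc was at least 2-fold lower and Amy1 at least 2-fold higher, with differences of -1.79 and 1.23, the summed level was 10062 in the young and 13417 in the aged sample, and Dcpp2, the brightest, had levels of 10.95 and 11.46. The part of these cell types in the Egf value was not tested.

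Hbegf and Tgfa encode membrane-bound ligands that are released by cleavage. Hbegf had signals of 786 ± 78.7 in the young and 575 ± 57.6 in the aged sample, a difference of -0.08 ± 0.20. Tgfa had signals of 50.1 ± 6.07 and 35.8 ± 4.97, a difference of -0.12 ± 0.27. For both, the sign changed over the scalings.

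The neuregulins are ligands of ERBB3 and ERBB4, and NRG4 binds ERBB4. Nrg4 had a signal of 21.9 ± 4.35 in the young and 37.4 ± 5.32 in the aged sample by its brightest probe, levels of -3.55 and -2.40. The difference of 1.14 ± 0.35 (2.21-fold higher) was positive under all scalings, and was 0.88 with the spike-in controls and 0.50 with the normexp correction, both under 2-fold. Of its other probes, 2 were well above background in the aged sample only. The probe shown above had signals of 13.3 and 30.8, at least 2.84-fold higher, and another had 6.88 and 19.1, at least 1.75-fold higher. The fourth was on neither array well above background. The kept Nrg4 probes thus lay in the same direction, at low signals.

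Nrg1, which is made from several promoters and with different ends, gave values that depended on the probe. Its brightest probe, for a predicted transcript variant, had signals of 502 and 326, a difference of -0.25 ± 0.20. The probe that ends in TAA had signals of 317 ± 31.9 in the young and 75.1 ± 8.24 in the aged sample, a difference of -1.71 ± 0.21 (3.26-fold lower). Another probe differed by 0.10 ± 0.21. The second probe shown above was well above background in the aged sample only, with signals of 15.1 and 16.1. Nrg2 differed by 0.07 ± 0.22, and Nrg3 was not well above background with any probe. With every kept probe counted in place of the brightest, Fgf12 would join the higher and Nrg1 the lower genes.

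**Figure D3:**
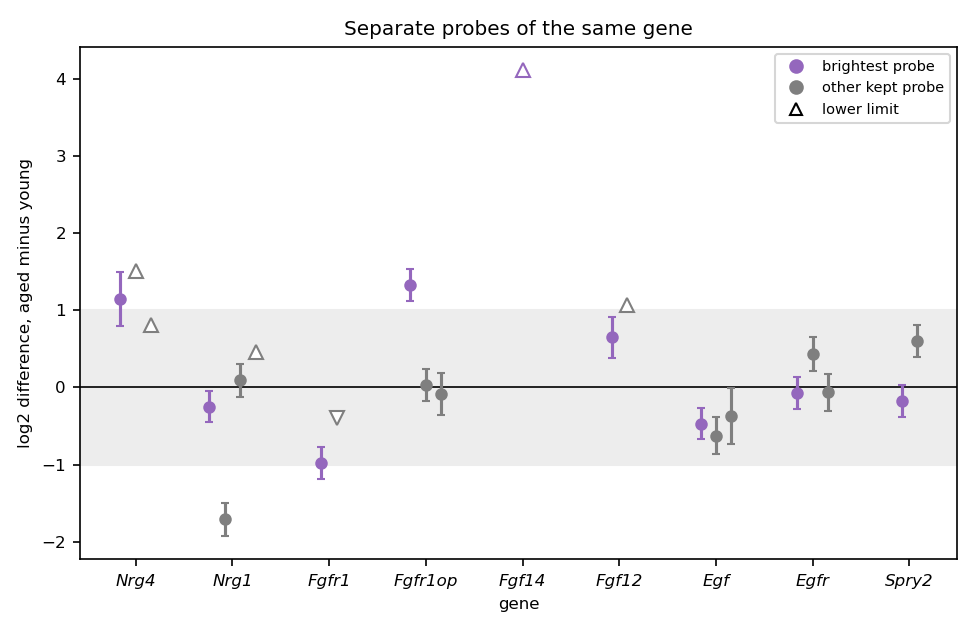
Log2 difference, aged minus young (vertical axis), of each kept probe for 9 of the genes, with the error of the scanner software. Triangles are lower limits, the grey band marks less than 2-fold, and the probes of Egf lie together whereas those of Nrg1 run from -1.71 to 0.46 and those of Fgfr1op from -0.09 to 1.33.

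Fgfr1op, now named Cep43, encodes a centrosomal protein and not an FGF receptor. Its brightest probe (A_55_P2153827) at chr17:8389281-8389340 had signals of 340 ± 34.1 in the young and 658 ± 65.9 in the aged sample, a difference of 1.33 ± 0.20 (2.51-fold higher). A probe that starts 7 bases before it (A_55_P2044104, chr17:8389274-8389333, both on the forward strand) and shares 53 of its 60 bases had signals of 407 and 321, a difference of 0.03 ± 0.20. The third probe differed by -0.09 ± 0.27. The first 30 bases of the overlapping probes are shown with their shared bases in capitals.

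Fgfr1op, starting first: gacaggtTCTGCATGTAATAAATGTCTCTT

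Fgfr1op, brightest: TCTGCATGTAATAAATGTCTCTTtgaacag

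The Fgfr1op count therefore holds for 1 of its 3 probes. Without the 3 genes matched by name only, 2 of 31 kept genes were at least 2-fold higher. Fgf2os and Fgfr1op2 differed by 0.60 ± 0.35 and 0.20 ± 0.20.

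Of the 5 feedback inhibitors, Dusp6, Spry1 and Spry2 were measured on both arrays, all with negative differences under 2-fold. Spry1 had signals of 443 ± 44.4 in the young and 214 ± 21.7 in the aged sample, levels of 0.79 and 0.12. Its difference of -0.67 ± 0.21 (1.60-fold lower) was negative under all scalings, from -0.93 to -0.50. Dusp6, a phosphatase of ERK, had signals of 5796 ± 580 and 3453 ± 345, a difference of -0.38 ± 0.20 that was also negative under all scalings. Spry2 differed by -0.18 ± 0.21 by its brightest probe and by 0.60 ± 0.21 by the other, so its direction depends on the probe. Spry3 and Spry4 were not well above background.

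**Figure D4:**
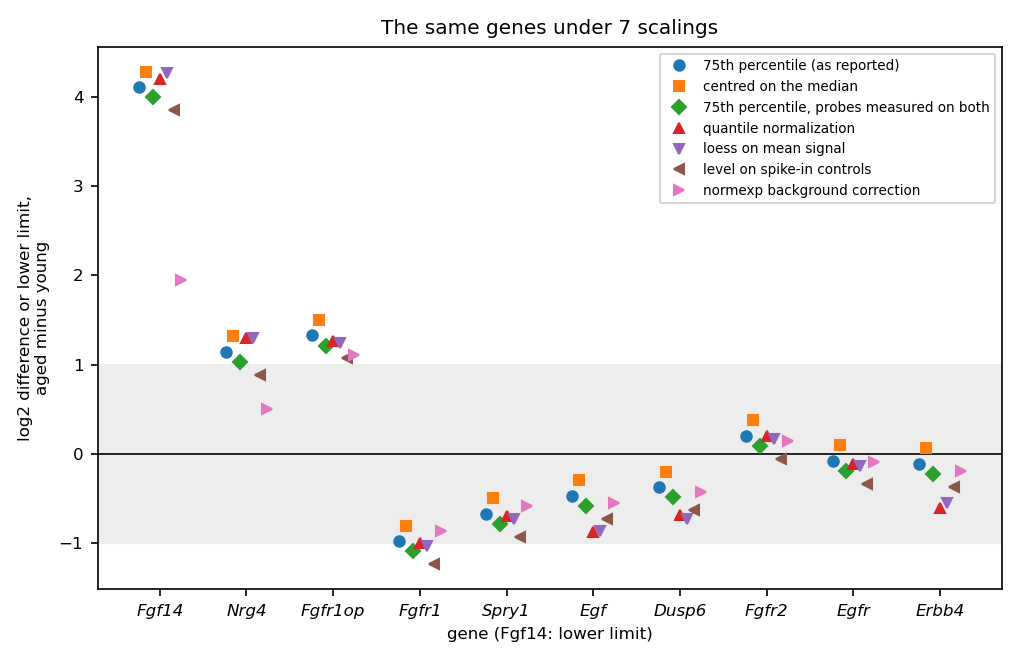
Log2 difference, aged minus young (vertical axis), of 10 genes under the 7 scalings, with the lower limit for Fgf14. The grey band marks less than 2-fold, and Fgf14 and Fgfr1op lie above it under all 7, Nrg4 under 5 of them, while Fgfr1 crosses its lower edge.

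Other genes of the pathway were taken from lists by function. All 24 genes of receptor docking and the RAS-ERK relay were measured on both arrays and 0 differed by 2-fold, with differences from -0.52 for Sos1 to 0.50 for Map2k2 and a median of 0.04. The brightest were Akt1, with levels of 4.56 and 4.91, and Pik3ca, with 4.15 and 4.42, which encode the kinase AKT1 and a catalytic subunit of the lipid kinase upstream of it. These genes lay within 2-fold under all 7 scalings.

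Of 22 FGF co-receptors and genes of heparan sulfate, the sugar chain that holds FGFs on their receptors, 17 were kept, 1 was at least 2-fold lower and 0 higher, 5.88% of the list beside the 5.14% of all kept genes. The lower gene was Flrt3, a membrane protein that interacts with FGF receptors. It had a signal of 103 on the young array and was not well above background on the aged array, with 5.91, which puts the aged sample at least 5.59-fold lower, and its second probe was well above background on neither. The Flrt3 limit, -2.48 on the log2 scale, ranged from -2.74 to -1.03 (normexp) over the scalings. Kl and Klb, the co-receptors of the endocrine FGFs, were not well above background. Ndst1 and Sdc4, the brightest genes of the list, differed by -0.12 and -0.17.

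Of 15 genes for the release of EGF ligands and the turnover of their receptors, all were measured on both arrays and 0 differed by 2-fold. Of the 15, 12 had negative differences, with a median of -0.18. Among all genes measured on both arrays, 7519 of 18745 were negative, with a median of 0.09. Errfi1, an inhibitor of the EGF receptor, had levels of 5.23 and 5.15, and Lrig2 had 4.35 and 4.33. The sheddases Adam10 and Adam17 differed by -0.31 and -0.39, and Cbl, a ubiquitin ligase that removes EGF receptors, by -0.70.

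Of 16 targets and feedback genes induced by ERK, all were measured on both arrays, and 2 were at least 2-fold lower and 0 higher. The 2 are 12.5% of the list, beside 3.05% lower among all genes so measured and 5.14% among all kept genes. Etv5, a transcription factor that follows FGF signalling in branching organs, had signals of 509 in the young and 139 in the aged sample, levels of 0.99 and -0.51, and a difference of -1.50 ± 0.21 (2.83-fold lower). Dusp4, a nuclear phosphatase of ERK, had levels of 0.77 and -0.40, a difference of -1.17 ± 0.21, and its second probe differed by -1.07 ± 0.21. Etv5 ranged from -1.76 to -1.21 over the scalings, and Dusp4 from -1.43 to -0.96. Spred1, another inhibitor of the pathway, differed by -0.93 ± 0.21. The immediate early genes Fos, with levels of 7.98 on both arrays, and Phlda1, with 7.46 and 7.51, were the brightest of the list, and Egr1 differed by -0.43, Etv1 by -0.17 and Etv4 by 0.13. The list held members of both signs, 10 negative and 6 positive.

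**Figure D5:**
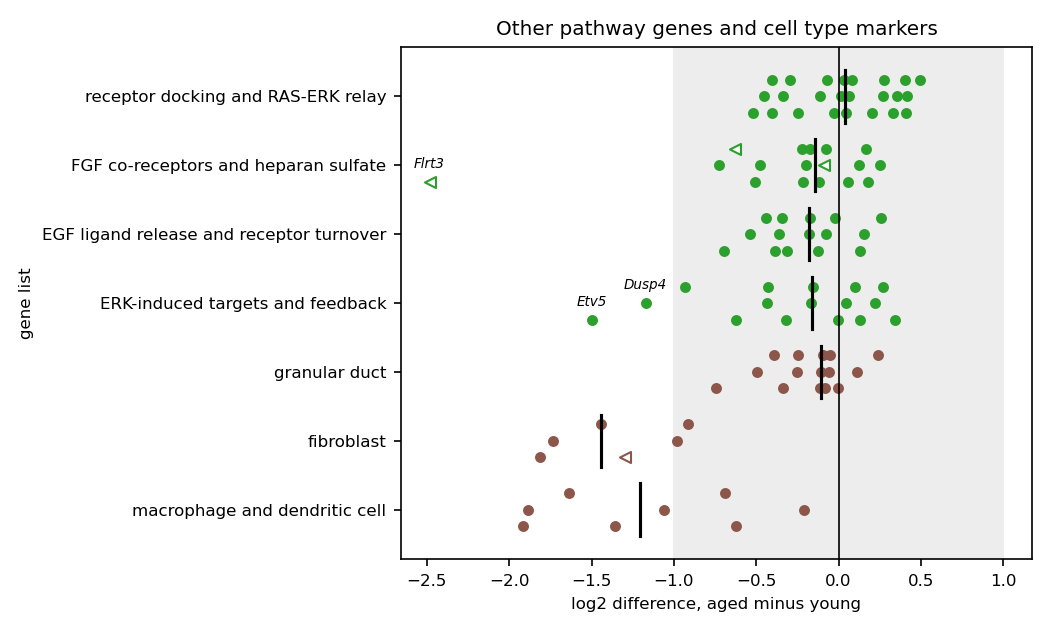
Log2 difference, aged minus young (horizontal axis), of the genes in 4 pathway lists (green) and 3 lists of cell type markers (brown), 1 point per gene, with black bars at the median of genes measured on both arrays and open triangles for lower limits. The pathway lists centre near 0, with Etv5, Dusp4 and Flrt3 beyond 2-fold, and the fibroblast and macrophage lists centre at -1.44 and -1.21.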

How the data were processed

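RNA of EpCAM-selected submandibular gland cells, labelled with Cy3, was hybridized to 1 Agilent mouse 8 x 60K array per age. The authors deposited spot intensities from Agilent Feature Extraction 12.0.3.1, background-subtracted and detrended within each array, with a substitute where the signal was below its error, and raw mean and background intensities. The authors' processed table holds these intensities divided by 1 constant per array, 229 for the young and 176 for the aged. Here, log2 intensities were taken relative to the 75th percentile of 59305 non-control spots. Outlier spots were dropped (none belonged to a member), no spot was saturated, and a probe was kept if either array measured it well above background. With 1 array per group, no p-value was computed. Repeated probes had a median SD of the difference of 0.034 (293 probes measured on both arrays). That repeat error is technical, and signal over background limits precision further.

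The members and lists were chosen with earlier results of these data known. Values are given for every kept member, for list genes past 2-fold, for the brightest 2 genes of each pathway list and for the brightest gene of each marker list, and other list genes were picked after their values were seen. Some list genes are not reported here. Of the 56605 probes, 33767 took a name from RefSeq genes of GRCm38.p6 by accession. Alternatives were 6 other scalings or background corrections (normexp with an offset of 50, loess with a span of 0.7 and 3 iterations), other filters, probe means and the authors' table. R 4.3.3 with limma 3.58.1 and Python 3.11.15 with numpy 2.4.6, pandas 2.3.3 and matplotlib 3.10.9 were used. The steps were tested on simulated data, with changes well beyond 2-fold in genes of brighter signal. That test does not cover dim probes or differences near 2-fold.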

Additional observations from a re-analysis of the deposited data

How the results depend on the processing

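The number of members at least 2-fold lower was 0 and became 1, Fgfr1, with quantile or loess normalization, the spike-in controls or a 75th percentile taken over the probes that both arrays measured, and 1, Nrg1, when every kept probe counted, a choice added after the data had been seen. Without a filter on dim probes it was 5, all of them genes that neither array measured well above background. The number at least 2-fold higher lay between 2 and 4 under all settings. The median difference of members measured on both arrays was -0.33 with the spike-in controls and between -0.33 and 0.10 over the scalings. Among the targets induced by ERK, the count of lower genes was 1 with median centring and 1 with normexp, where Etv5 alone passed, and 3 with the spike-in controls and with the percentile over probes measured on both arrays, and in the list of ligand release, normexp gave 1 higher gene, Rhbdl2, by another probe. Over all kept genes, 539 were higher and 1098 lower, against 348 and 1619 with the spike-in controls and 182 and 297 with normexp. Of 398 recomputed differences of single genes, 344 moved by less than the scanner software's error and 54 by more, and 0 of the genes past 2-fold changed sign. Most of the 54 came with the spike-in controls. Some settings could hardly move a value, such as keeping outlier spots or using the authors' table, which differs by 1 constant per array. The 344 are therefore no measure of how stable the differences are. With 1 array per age no replicate could be left out and no paired analysis was possible because each age has a single sample. Lower limits depend on the detection mark of the scanner software.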

Other observations

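Markers of cells that are neither epithelial nor listed above gave these values. Of 7 endothelial markers, all were kept and 0 differed by 2-fold, with a median of -0.54 over the 6 measured on both arrays. Their summed level was 6.05 in the young and 4.24 in the aged sample, and Emcn, the brightest, had levels of 1.06 and 0.54. Of 8 T and B cell markers, 6 were kept. Cd79b, a chain of the B cell receptor complex, differed by -2.14. Cd8a and Cd79a were on neither array well above background. Cd4, the brightest of the list, had levels of 2.64 and 2.69, and the summed level was 11.0 in the young and 12.6 in the aged sample.

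The 15 members that neither array measured well above background were Areg, Btc, Ereg, Fgf2, Fgf4, Fgf5, Fgf13, Fgf15, Fgf16, Fgf17, Fgf21, Fgf22, Nrg3, Spry3 and Spry4. For 6 of them, every probe held a substitute value on both arrays.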
